A study of Mus musculus with 1753 samples.

Results

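Cluster 3 of the skeletal muscle cells is 1 of 5 clusters that the study grouped as endomysial. Endomysial fibroblasts are the stromal cells that lie between single muscle fibres. The study anticipated that the 5 clusters also hold fibro-adipogenic progenitors and fibroblasts around vessels, and left this to further work. The genes Mme, Ces1d, Rtn1, Hsd11b1, Ret, Col6a6 and Aldh1a2 are used here as its markers. Its members are all cells whose deposited cluster label is 3, which were 440 of 1753 labelled cells and 440 of 1566 fibroblasts. The other 1126 fibroblasts carried the labels 1, 2, 4, 5, 6, 8, 9 or 10. Of these the study grouped clusters 1, 5, 6 and 8 (676 cells) as endomysial, 2 and 9 as perimysial (from the connective tissue around bundles of fibres) and 4 as paramysial (from the border of the former compartments). Cluster 10 (62 cells) was a further fibroblast group, which the study defined by Cspg4, Pdgfra and Ngfr and located at the edge of nerve fibres. Cluster 7 (187 cells) held mural cells. The clusters were drawn by the study from the same read counts that are compared here. The differences below therefore describe how far cluster 3 stands apart in each mouse strain, and are no independent evidence that it is a separate cell type.

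All mice were adult males of 10 to 20 weeks, untreated, and their hindlimb muscle was dissociated and sorted into 384-well plates for Smart-seq2, a full-length single-cell RNA sequencing method, with added spike-in RNA. C57BL6 mice carried no reporter, and their cells were sorted with antibodies against PDGFRα or PDGFRβ. The other strain labels name reporter mice, in which a fluorescent protein is driven by the promoter of Acta2 (Acta2GFP), Cspg4 (Cspg4dsRED) or Pdgfrb (PdgfrbGFP). In the PdgfraGFP - PdgfrbGFP pool, cells of Pdgfra and Pdgfrb reporter mice were combined. The study sorted cells by such reporters or by antibodies against PDGFRα or PDGFRβ. The labels do not say which gate a plate of reporter mice was sorted with. Muscle was gastrocnemius and soleus together, except in the pool and on 1 PdgfrbGFP plate, where the muscles were kept apart. The labels name no animal, and the strain label was taken as the replicate. The p-values thus measure only the spread between these strains, which also differ in plate and may differ in sort gate. Cluster 3 had 39 cells in Acta2GFP, 57 in C57BL6, 163 in the pool and 179 in PdgfrbGFP, and only 2 in Cspg4dsRED, which therefore entered no test. Values for the 4 strains are always given in the order Acta2GFP, C57BL6, pool and PdgfrbGFP.

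Muscle fibroblasts secrete the collagens, laminins and proteoglycans that hold fibres together, and the endomysial ones lie next to the basement membrane of the fibre and of the capillary. Those that express Pdgfra include the fibro-adipogenic progenitors, which can form fat or scar and which send trophic signals to muscle stem cells after injury. Among the marker genes, Hsd11b1 encodes the enzyme that regenerates active glucocorticoid from its inert form, Aldh1a2 encodes a retinaldehyde dehydrogenase that makes retinoic acid, and Ces1d encodes a carboxylesterase that handles lipid esters. Ret encodes the receptor tyrosine kinase for GDNF family ligands, which it binds together with GFRA co-receptors, Mme encodes the membrane peptidase neprilysin, Rtn1 encodes a reticulon of the endoplasmic reticulum, and Col6a6 encodes a collagen VI chain.

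For 5 of the 7 markers the RefSeq promoter table (GRCm38.p6) held windows from 250 bases before to 50 bases after a gene start; Ces1d and Ret were named only. The first listed window is shown for Rtn1, Mme and Col6a6, markers that were higher together in cluster 3, with capitals marking matches to any of 6 motifs searched on both strands. These were the TATA box (TATAAA), the GC box core (GGGCGG), the CCAAT box (CCAAT), an E box (CAGCTG), the AP-1 site (TGANTCA) and the core of glucocorticoid receptor sites (AGAACA).
Rtn1 (chr12:72235697-72235996, minus strand, the first of 3 windows): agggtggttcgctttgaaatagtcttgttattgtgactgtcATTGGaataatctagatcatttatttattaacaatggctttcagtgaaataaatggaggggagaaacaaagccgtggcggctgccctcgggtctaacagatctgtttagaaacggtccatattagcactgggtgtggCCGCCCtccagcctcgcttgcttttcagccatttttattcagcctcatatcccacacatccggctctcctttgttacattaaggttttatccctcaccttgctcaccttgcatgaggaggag
Mme (chr3:63294961-63295260, plus strand, the first of 3 windows): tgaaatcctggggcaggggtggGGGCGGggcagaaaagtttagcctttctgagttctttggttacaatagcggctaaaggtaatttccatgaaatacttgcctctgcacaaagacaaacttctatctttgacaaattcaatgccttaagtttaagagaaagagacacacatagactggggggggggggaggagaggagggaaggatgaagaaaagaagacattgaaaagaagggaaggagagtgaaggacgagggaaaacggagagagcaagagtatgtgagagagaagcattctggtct
Col6a6 (chr9:105828036-105828335, minus strand, the single window): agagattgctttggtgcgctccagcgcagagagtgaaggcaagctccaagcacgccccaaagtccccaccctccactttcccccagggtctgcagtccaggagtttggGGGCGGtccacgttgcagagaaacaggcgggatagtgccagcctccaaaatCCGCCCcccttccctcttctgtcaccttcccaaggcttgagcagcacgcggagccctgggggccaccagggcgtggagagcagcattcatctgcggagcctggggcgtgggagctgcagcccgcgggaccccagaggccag
The GC box core was present in all 3 of these windows and in 35.7% of the 32851 promoter windows of the table. Rtn1 also held the CCAAT box on the reverse strand, at 209 bases before its start, a motif found in 37.4% of all windows. None of the 3 windows contained the TATA box (13.6% of all windows), the E box (16.3%), the AP-1 site (7.81%) or the glucocorticoid receptor core (in 19% of windows), which says only that these letters were absent there. The windows of the remaining 2 markers, Hsd11b1 and Aldh1a2, held the CCAAT box and no GC box core. Of the windows not shown, both of Mme, which overlap, held the same single AP-1 site, and 1 of Rtn1 the glucocorticoid receptor core.

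The depth of cluster 3 was close to that of the other fibroblasts. Its cells held 49753 to 803598 counts (median 272519) and a median of 4601 genes, compared with medians of 267774 counts and 4438 genes in the other fibroblasts, and mitochondrial reads took a median of 1.28% and 1.30%. For each strain the counts of all cells in cluster 3, and of all cells in the comparison arm, were added up, which gave 9807678, 22284461, 55331831 and 43260141 counts for cluster 3. Levels below are log2 CPM (counts scaled to a fixed library total) of these sums, so that 1 unit is a change by a factor of 2. Differences are cluster 3 minus the other arm, with the SD over the strains.

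The 7 markers were detected unevenly from cell to cell. A gene was taken as detected at 100 counts or more after scaling each cell to 500000. By this measure Hsd11b1 was found in 82.9% ± 6.74 (SD, n = 4 strains) of cluster 3 cells and Aldh1a2 in 60.3% ± 16.8. Mme was found in 37.5% ± 7.95, Ret in 30.6% ± 9.41, Ces1d in 28.8% ± 3.99, Rtn1 in 28.4% ± 6.94 and Col6a6 in 26.4% ± 8.32. The typical cell of cluster 3 therefore showed a median of 3 of the 7 markers. Of the 440 cells, 177 (40.2%) had 4 or more markers, 3 (0.682%) had all 7 and 16 (3.64%) had none. In every other cluster the median was 0 or 1, and cluster 1 came nearest, with 4 or more markers in 12 of 161 cells (7.45%). The 2 cluster 3 cells of Cspg4dsRED had 1 and 3 markers, and of the 105 other fibroblasts of that strain 24 (22.9%) had at least 1 and none more than 2.

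By mean CPM over the strains with at least 3 cells, cluster 3 had the highest level of each of the 7 markers among the 9 fibroblast clusters. For 3 of them the strain values overlapped with those of the next cluster. Hsd11b1 averaged 979 CPM, against 566 in cluster 10, and the lowest cluster 3 strain (803) lay above the highest of cluster 10 (722). Ret averaged 196 CPM against 102 in cluster 1, Rtn1 164 against 39.7 in cluster 5 and Col6a6 170 against 71.7 in cluster 5, each without overlap. In contrast, Aldh1a2 (813 against 256 in cluster 1), Mme (219 against 82.5 in cluster 4) and Ces1d (180 against 136 in cluster 10) overlapped with their neighbour in at least 1 strain. Ces1d belongs to a family of closely similar carboxylesterase genes, and reads shared among them could have been split by the counting. All 7 markers were higher in cluster 3 than in the other fibroblasts in each of the 7 libraries (strain, plate and muscle) that had at least 3 cells in both arms.

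**Figure D1:**
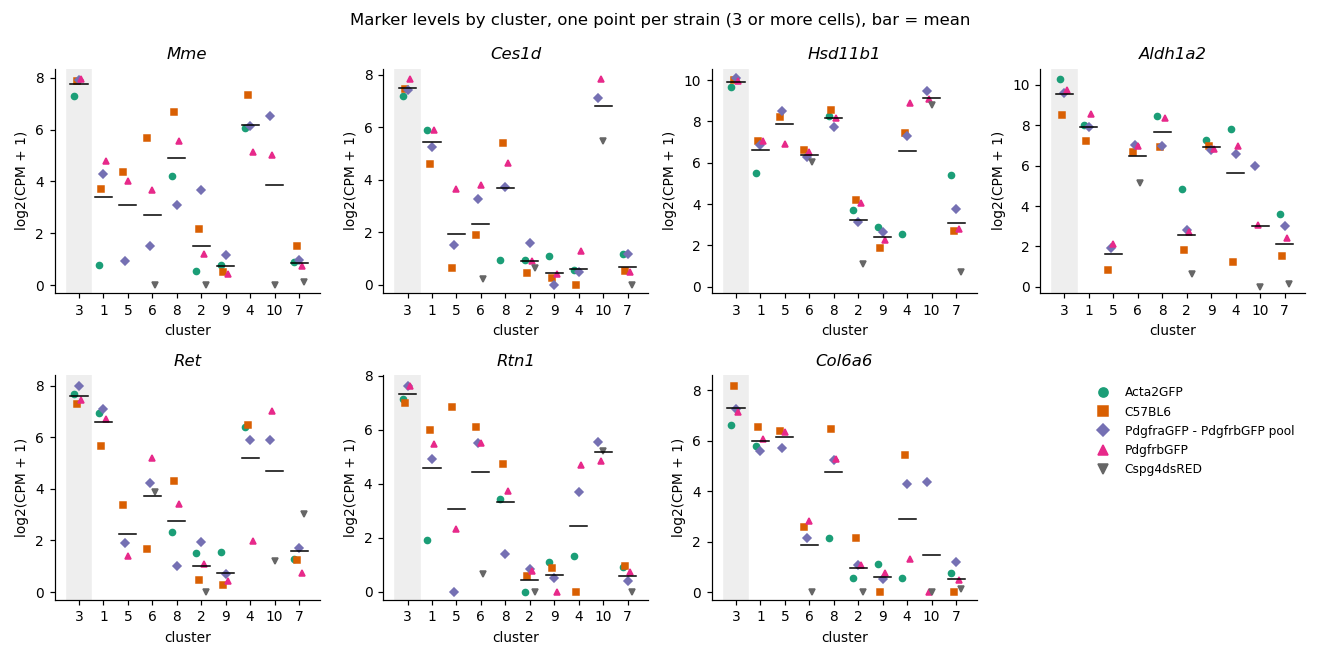
Levels of the 7 markers, as log2(CPM + 1), in cluster 3 and in the other clusters; each point is 1 strain with 3 or more cells and each bar is the mean over strains. Cluster 3 (shaded) has the highest mean for each marker, while strain points overlap with those of another cluster for Mme, Ces1d and Aldh1a2.

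The share of fibroblasts assigned to cluster 3 varied with the strain. It was 38.6% in Acta2GFP (39 of 101 cells, exact 95% interval 29.1% to 48.8%) and 15.7% in C57BL6 (57 of 364, 12.1% to 19.8%). It was 40.6% in the pool (163 of 401, 35.8% to 45.6%), 30.2% in PdgfrbGFP (179 of 593, 26.5% to 34.1%) and 1.87% in Cspg4dsRED (2 of 107, 0.227% to 6.59%). The intervals of C57BL6 and of Cspg4dsRED lay below those of the other three strains, and they cover counting error only. Strain, sort gate and plate cannot be told apart in these shares. Where the 2 muscles were kept apart the order differed between strains. In the pool 51.6% of gastrocnemius fibroblasts (116 of 225) and 26.7% of soleus fibroblasts (47 of 176) were in cluster 3. In PdgfrbGFP the shares were 14.5% (19 of 131) and 46.8% (51 of 109).

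**Figure D2:**
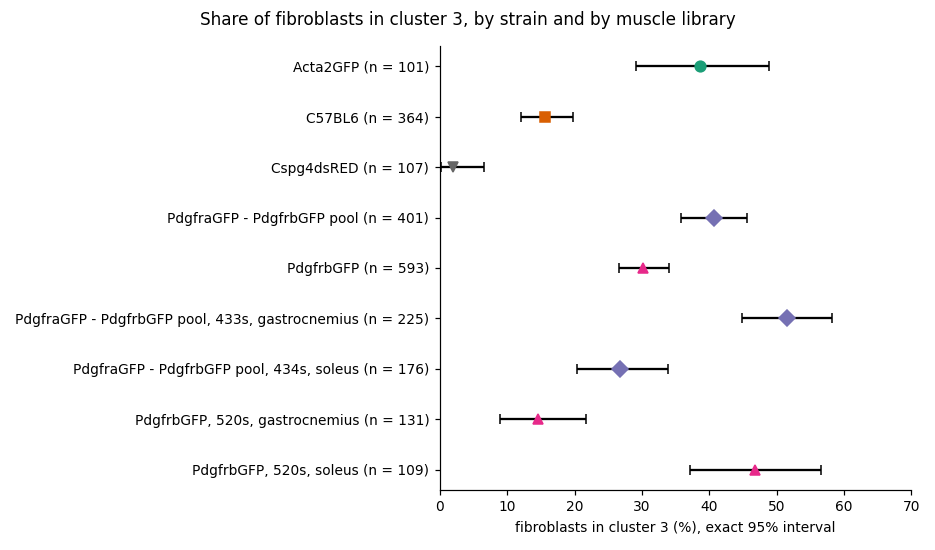
Share of fibroblasts assigned to cluster 3, in percent, for each strain and for each library with its muscle; bars are exact 95% binomial intervals and n is the number of fibroblasts. The 2 strains with separated muscles show opposite orders of gastrocnemius and soleus, and Cspg4dsRED lies at 1.87%.

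RNA content did not separate cluster 3 from the other fibroblasts. The median log2 ratio of endogenous to spike-in counts differed by -0.37, 0.16, -0.21 and -0.12 in the 4 strains, lower in cluster 3 in 3 of 4. The mean was -0.13 (SD 0.22, exact two-sided sign-flip permutation p = 0.375), and 0.13 is the smallest p that 4 strains allow. With every cell thinned to 40000 counts, the median number of detected genes was 3604, 2689, 3202 and 2962 in cluster 3 and 3911.5, 2473, 3650 and 3153 in the other fibroblasts (mean difference -183, SD 286, same exact p = 0.375). C57BL6 went the other way from the other strains in both measures.

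Against all other fibroblasts, 483 of 16693 tested genes passed an adjusted p of 0.05 (2.89%), of which 162 were higher in cluster 3 (0.97%) and 321 lower (1.92%). Their direction was shared by all 4 strains for 480 genes, 305 differed by at least 2 on the log2 scale, and the median difference over all tested genes was -0.06. Against the 4 other endomysial clusters alone, 201 of 16056 genes passed (1.25%), 106 higher (0.66%) and 95 lower (0.592%), with a median of -0.02 over all genes. The first comparison includes perimysial and paramysial cells, and the second does not. Each call was also tested with 1 strain left out, on 3 strains, and the calls that were lost are named with the range of their adjusted p.

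The 7 markers were chosen with earlier results of these data known, and the clusters were drawn from the same counts. Their tests therefore give the size and spread of the differences and are no support for the markers or the cluster. All 7 passed against all other fibroblasts, and for none of them did the levels of cluster 3 and of the other cells overlap. Mme was at 7.41, 7.92, 7.93 and 7.99 log2 CPM in cluster 3 and 3.62, 5.13, 4.81 and 4.68 in the other fibroblasts, a difference of 3.25 (SD 0.42, adjusted p = 0.00172). Ces1d reached 7.31, 7.52, 7.43 and 7.87 compared with 2.65, 3.64, 4.16 and 4.77, which gave 3.71 (SD 0.71, adjusted p = 0.00367). For Hsd11b1 the levels were 9.78, 10.05, 10.11 and 10.00 and 6.16, 7.08, 7.16 and 7.37, a difference of 3.04 (SD 0.42, adjusted p = 0.00151). Aldh1a2 was the marker with the least spread of its difference between strains, although C57BL6 was low in both arms. Its levels were 10.43, 8.58, 9.59 and 9.80 against 7.59, 6.06, 6.79 and 7.76, a difference of 2.55 (SD 0.37, adjusted p = 0.00172). Ret stood at 7.79, 7.33, 8.00 and 7.48 against 4.73, 3.64, 5.50 and 4.97, a difference of 2.94 (SD 0.56, adjusted p = 0.00395). Col6a6 had 6.74, 8.24, 7.25 and 7.17 against 2.65, 5.20, 4.26 and 4.95, a difference of 3.07 (SD 0.77, adjusted p = 0.00775). Rtn1 varied most in the comparison arm, where Acta2GFP was far below the other strains. It was at 7.25, 7.03, 7.64 and 7.64 in cluster 3 and 1.59, 4.88, 4.25 and 4.39 in the others, a difference of 3.52 (SD 1.47, adjusted p = 0.0281). With a strain left out, the call was lost for Rtn1 without the pool or PdgfrbGFP (adjusted p = 0.109 to 0.116).

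In all, 6 of the markers also passed against the other endomysial clusters. The differences there ran from 1.99 (SD 0.28, adjusted p = 0.00344) for Aldh1a2 to 3.42 (SD 1.16, adjusted p = 0.0308) for Mme, and Ces1d had 3.09 (SD 0.09, adjusted p = 0.00299). Hsd11b1 was at 9.74, 10.05, 10.08 and 10.00 in cluster 3 and 7.73, 7.81, 6.88 and 7.61 in the endomysial clusters, a difference of 2.46 (SD 0.52, adjusted p = 0.00711). Rtn1 did not pass (2.83, adjusted p = 0.0577). With a strain left out, calls were lost for Mme without Acta2GFP, the pool or PdgfrbGFP, for Ret without the pool or PdgfrbGFP, for Col6a6 without the pool and for Hsd11b1 without PdgfrbGFP (adjusted p = 0.0579 to 0.145).

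The shares of all tested genes that passed were 0.97% higher and 1.92% lower. Of 14 genes of glucocorticoid metabolism and response, 2 were higher in cluster 3 and none lower (median of the list 0.31, all genes -0.06). These were the marker Hsd11b1 and H6pd. The latter encodes the hexose-6-phosphate dehydrogenase that supplies NADPH to HSD11B1 inside the endoplasmic reticulum. It was at 7.52, 7.79, 8.56 and 8.27 in cluster 3 and 5.72, 6.23, 7.01 and 6.71 in the other fibroblasts, a difference of 1.62 (SD 0.12, adjusted p = 0.00283), higher in every strain by a similar amount. Cluster 10 came close, with a mean of 246 CPM compared with 264 in cluster 3 and overlapping strain values. Against the other endomysial clusters the same 2 genes of the list passed, H6pd with 1.33 (SD 0.29, adjusted p = 0.0159). In that comparison the call was lost for H6pd without C57BL6, the pool or PdgfrbGFP (adjusted p = 0.0746 to 0.118), and H6pd also missed the threshold with cells weighted alike (adjusted p = 0.118). Within cluster 3, H6pd was detected in 45.1% ± 9.26 of cells with Hsd11b1 and in 17.7% ± 12.1 of cells without it (SD, n = 4 strains). The depth of a cell bears on the detection of both genes. The glucocorticoid receptor gene Nr3c1 (0.29, adjusted p = 0.516) did not pass. Nor did the glucocorticoid-responsive genes Fkbp5 (-0.06, adjusted p = 0.985), Tsc22d3 (0.02, adjusted p = 0.963), Per1 (0.15, adjusted p = 0.745) and Zbtb16 (0.47, adjusted p = 0.61).

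In the retinoid list Aldh1a2 was the only gene higher among 19 tested, and 2 were lower (median -0.36). The shares of all tested genes were 0.97% higher and 1.92% lower. Dhrs3 encodes a reductase that turns retinaldehyde back to retinol. It was at 6.56, 6.45, 6.03 and 6.33 against 7.99, 8.72, 7.02 and 7.18, a difference of -1.38 (SD 0.64, adjusted p = 0.0446), and did not pass against the other endomysial clusters (-1.10, adjusted p = 0.129). Crabp1, which encodes a cytosolic retinoic acid binding protein, was nearly absent from cluster 3. It had 55 counts over the 4 strains and 8317 in the other fibroblasts, a difference of -5.90 (SD 0.89, adjusted p = 0.0088), and did not pass against the endomysial clusters (0.87, adjusted p = 0.791). In fits without a strain, calls were lost for Dhrs3 in all 4 fits and for Crabp1 without PdgfrbGFP (adjusted p = 0.0545 to 0.159). The related dehydrogenase genes Aldh1a1 (0.78, adjusted p = 0.0887) and Aldh1a3 (-1.75, adjusted p = 0.158) did not pass. The same held for the retinoic acid receptor genes Rara (0.90, adjusted p = 0.257), Rarb (-1.16, adjusted p = 0.451) and Rarg (-0.26, adjusted p = 0.711), and for Cyp26b1, which encodes an enzyme that degrades retinoic acid (-1.80, adjusted p = 0.415).

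The co-receptor gene Gfra1 was also higher in cluster 3. It encodes the protein that presents GDNF to RET. It was at 7.75, 7.97, 8.22 and 8.07 in cluster 3 and 3.74, 5.89, 6.52 and 5.82 in the other fibroblasts, a difference of 2.47 (SD 1.03, adjusted p = 0.027). Against the other endomysial clusters the difference was 2.32 (SD 0.54, adjusted p = 0.0116). Cluster 10 had more Gfra1 than cluster 3, a mean of 718 CPM compared with 249, with overlapping strain values. In cluster 3, 38.4% ± 7.12 of cells showed Gfra1 and 13.6% ± 7.70 showed both genes. Gfra1 was found in 43.8% ± 15 of cells with Ret and in 35.8% ± 3.49 of cells without it (SD, n = 4 strains), which overlapped between strains. Among 11 genes of the RET, GDNF and neurotrophin list, Ret and Gfra1 were higher and 3 lower against all other fibroblasts (median -2.15). The shares of all tested genes were 0.97% higher and 1.92% lower. Gfra2, the co-receptor gene for neurturin, was at 2.89, 2.79, 3.02 and 2.03 against 7.71, 5.43, 5.03 and 5.64, a difference of -3.24 (SD 1.23, adjusted p = 0.027). The ligand genes Nrtn and Bdnf had 8 and 1 counts in cluster 3 and 1552 and 1540 in the other fibroblasts (adjusted p = 0.0498 and 0.0194). Gdnf itself had 1 count in cluster 3 and 334 in the other fibroblasts and was too low to test. Ntrk2, the receptor gene for BDNF, was lower against the endomysial clusters (-1.57, SD 0.53, adjusted p = 0.0308) and did not pass against all others (-0.83, adjusted p = 0.332). In the endomysial comparison Ntrk2 was the only lower gene of 9 tested from this list, and Ret and Gfra1 were the 2 higher. Gfra2, Nrtn and Bdnf were not called there. Of all tested genes 0.66% were higher and 0.592% lower in that comparison. Against all other fibroblasts calls were lost for Nrtn and Bdnf in all 4 fits, for Gfra1 without C57BL6, the pool or PdgfrbGFP and for Gfra2 without Acta2GFP, C57BL6 or PdgfrbGFP (adjusted p = 0.0589 to 0.217). Against the endomysial clusters calls were lost for Ntrk2 in all 4 fits and for Gfra1 without Acta2GFP, the pool or PdgfrbGFP (adjusted p = 0.0528 to 0.135).

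Several peptidases were higher beside Mme. Among 13 genes tested, 5 passed as higher and 1 as lower against all other fibroblasts (median 0.40), compared with 0.97% and 1.92% of all tested genes. Cpq, a glutamate carboxypeptidase gene, was at 9.49, 9.83, 9.57 and 9.77 against 8.91, 8.67, 8.32 and 8.76, a difference of 1.00 (SD 0.30, adjusted p = 0.0191). Fap encodes fibroblast activation protein, a prolyl peptidase of the cell surface, and differed by 1.15 (SD 0.51, adjusted p = 0.0397). Ace, the angiotensin converting enzyme gene, differed by 1.62 (SD 0.79, adjusted p = 0.0427) and Ece1, the endothelin converting enzyme gene, by 0.77 (SD 0.15, adjusted p = 0.0227). In the other direction, Cpe, the carboxypeptidase E gene of prohormone processing, was at 4.16, 4.21, 3.65 and 4.38 in cluster 3 compared with 7.32, 7.20, 7.84 and 8.29, a difference of -3.57 (SD 0.58, adjusted p = 0.00256). Mme, Cpq (0.89), Fap (1.45) and Cpe (-4.31) also passed against the endomysial clusters. Ace (0.90, adjusted p = 0.0555) and Ece1 (0.49, adjusted p = 0.106) did not. Among these genes, calls were lost for Fap and Ece1 in all 4 fits and for Cpq and Ace without C57BL6, the pool or PdgfrbGFP (adjusted p = 0.0777 to 0.177). Against the endomysial clusters, calls were lost for Cpq and Fap without the pool or PdgfrbGFP (adjusted p = 0.0649 to 0.0899).

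Many basement membrane genes were higher in cluster 3. Of 20 tested, 10 passed as higher and 1 as lower against all other fibroblasts (median 1.17), compared with 0.97% and 1.92% of all tested genes. Lamb1, which encodes the laminin β1 chain, was at 10.12, 9.78, 10.07 and 9.83 in cluster 3 and 6.77, 7.16, 8.81 and 7.04 in the other fibroblasts, a difference of 2.52 (SD 0.89, adjusted p = 0.0174). The pool had the highest Lamb1 level of the comparison arm, and the ranges still did not overlap. Col4a1, a chain of type IV collagen, was at 9.69, 10.84, 10.25 and 10.10 against 8.33, 9.36, 8.89 and 8.37, a difference of 1.48 (SD 0.17, adjusted p = 0.00256). Its partner chain Col4a2 had 1.22 (SD 0.11, adjusted p = 0.00367). Perlecan, the heparan sulfate proteoglycan encoded by Hspg2, stood at 9.94, 10.03, 10.62 and 9.71 against 8.29, 8.47, 9.38 and 8.34, a difference of 1.46 (SD 0.19, adjusted p = 0.00301). Nid2 and Nid1 encode the nidogens that link laminin to collagen IV, and differed by 1.77 (SD 0.25, adjusted p = 0.00307) and 1.16 (SD 0.37, adjusted p = 0.0174). Lamc1 and Lama2, whose chains form the laminin of the muscle fibre surface together with that of a β chain gene such as Lamb1, had 1.36 (SD 0.28, adjusted p = 0.00676) and 1.11 (SD 0.22, adjusted p = 0.0088). Lama4, the α chain gene of vascular laminin, had 1.46 (SD 0.69, adjusted p = 0.0411), and Col15a1, a collagen gene of the basement membrane zone, 1.47 (SD 0.46, adjusted p = 0.0174). The gene lower in cluster 3 was Lama3, an epithelial laminin chain gene, with 11 counts against 3573 (-6.45, adjusted p = 0.0225). By single cluster, Col15a1 was highest in cluster 10, at a mean of 747 CPM compared with 265 in cluster 3 and 258 in cluster 4. Lamb1 and Col4a1 were highest in cluster 3 (953 and 1200 CPM), and their strain values overlapped with those of cluster 4 (694 and 903). Lamb2 (0.12, adjusted p = 0.827) and Lama5 (-2.81, adjusted p = 0.378) did not pass. Col4a1, Col4a2, Hspg2, Lamc1 and Nid2 kept their calls whichever strain was left out. For the others, calls were lost for Lama3 in all 4 fits, for Lamb1, Nid1, Lama4 and Col15a1 without Acta2GFP, C57BL6 or PdgfrbGFP and for Lama2 without PdgfrbGFP (adjusted p = 0.0552 to 0.165). Without the strain block Col15a1 also missed the threshold (adjusted p = 0.117).

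The same direction was seen within the endomysium. Against the other endomysial clusters 9 of 19 basement membrane genes were higher and none lower (median 0.96), compared with 0.66% and 0.592% of all tested genes. Lamb1 was at 10.07, 9.78, 10.05 and 9.83 against 6.91, 7.84, 7.87 and 7.21, a difference of 2.47 (SD 0.54, adjusted p = 0.00764). Hspg2 differed by 1.65 (SD 0.42, adjusted p = 0.0125), Nid2 by 1.44 (SD 0.19, adjusted p = 0.00671) and Lamc1 by 1.13 (SD 0.20, adjusted p = 0.0084). For Col4a1 the difference was 1.19 (SD 0.23, adjusted p = 0.00873) and for Col18a1, which encodes the collagen that carries endostatin, 1.38 (SD 0.26, adjusted p = 0.0222). The ranges of Col4a1 and Col18a1 overlapped between strains, although each strain was higher in cluster 3. Col4a2 (0.96), Lama2 (0.96) and Nid1 (0.82) passed as well. In fits of 3 strains calls were lost for Nid1 in all 4 fits, for Hspg2, Col18a1 and Lama2 without C57BL6, the pool or PdgfrbGFP and for Lamb1, Nid2, Lamc1, Col4a1 and Col4a2 without the pool or PdgfrbGFP (adjusted p = 0.0505 to 0.153). Without the strain block the adjusted p was 0.182 for Col4a1, 0.105 for Col4a2, 0.323 for Col18a1 and 0.0584 for Lama2.

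Collagen VI chains were higher in cluster 3, and most fibril-forming collagens did not pass. Col6a2 was at 11.57, 11.38, 11.89 and 11.56 against 10.28, 10.22, 11.13 and 10.82, a difference of 0.99 (SD 0.28, adjusted p = 0.0145). Col6a1 (0.67, SD 0.17, adjusted p = 0.0237), Col6a3 (1.01, SD 0.46, adjusted p = 0.0409) and the marker Col6a6 passed too, while the sister chain gene Col6a5 had -4.62 (adjusted p = 0.0549). The same 4 chains passed against the endomysial clusters, with 0.61 for Col6a1, 0.99 for Col6a2, 0.78 for Col6a3 and 2.29 for Col6a6. Col6a6 kept its call against all fibroblasts whichever strain was left out. Of the others, calls were lost for Col6a1 in all 4 fits, for Col6a3 without Acta2GFP, C57BL6 or PdgfrbGFP and for Col6a2 without Acta2GFP or C57BL6 (adjusted p = 0.061 to 0.17) in the first comparison, and calls were lost for Col6a1 in all 4 fits, for Col6a2 and Col6a3 without C57BL6, the pool or PdgfrbGFP and for Col6a6 without the pool (adjusted p = 0.0528 to 0.128) in the second. Without the strain block Col6a1, Col6a2 and Col6a3 missed the threshold in both, with adjusted p = 0.0575, 0.0575 and 0.14 and then 0.0623, 0.0701 and 0.486. Col8a1, a short-chain collagen gene of vessel walls, was at 8.93, 8.13, 8.09 and 8.67 in cluster 3 and 6.05, 4.78, 6.61 and 5.59 in the endomysial clusters, a difference of 2.71 (SD 0.83, adjusted p = 0.0201). There the call was lost for Col8a1 without Acta2GFP, C57BL6 or PdgfrbGFP (adjusted p = 0.0895 to 0.13). Against all fibroblasts it did not pass (0.62, adjusted p = 0.62), and its mean was 1914 CPM in cluster 4 compared with 350 in cluster 3.

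Of 11 fibrillar collagens, Col5a3 was higher (1.47, SD 0.60, adjusted p = 0.027), and Col2a1, Col11a1, Col11a2 and Col24a1, at 4 to 375 counts in cluster 3, were lower. Among all tested genes 0.97% were higher and 1.92% lower in this comparison with all other fibroblasts. Col1a1 (-0.76, adjusted p = 0.0616), Col1a2 (-0.49, adjusted p = 0.157), Col3a1 (0.54, adjusted p = 0.291) and Col5a1 (0.77, adjusted p = 0.128) did not pass. Against the endomysial clusters 0 of 10 passed the edgeR test, where 1.25% of all tested genes passed. Colgalt2, which encodes a galactosyltransferase that modifies collagen, was at 8.29, 7.53, 7.74 and 8.19 against 5.39, 3.53, 6.23 and 4.66, a difference of 3.00 (SD 1.08, adjusted p = 0.0206). In fits without a strain, calls were lost for Col24a1 in all 4 fits, for Colgalt2 without Acta2GFP, C57BL6 or PdgfrbGFP, for Col5a3 without C57BL6 or PdgfrbGFP and for Col11a1 without Acta2GFP or C57BL6 (adjusted p = 0.0508 to 0.107).

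Among other matrix genes, some families held genes of both directions. Lum, which encodes the proteoglycan lumican, was higher by 1.14 (SD 0.39, adjusted p = 0.0202). Podn, of the same small leucine-rich family, was higher by 1.25 (SD 0.46, adjusted p = 0.0224). Fmod, Kera, Chad and Omd of that family were lower, by -4.29, -6.00, -4.49 and -1.45 in the fit. In all, 2 of 11 tested family members were higher and 4 lower, compared with 0.97% and 1.92% of all tested genes. Against the endomysial clusters 1 of 11 was higher and none lower, compared with 0.66% and 0.592% of all tested genes. These 4 genes were thus not called lower within the endomysium. Fbln2, the fibulin-2 gene, was at 11.47, 11.54, 11.36 and 11.43 against 9.81, 10.15, 10.24 and 10.21, a difference of 1.35 (SD 0.24, adjusted p = 0.00419). Its relative Fbln1 went the other way, at 8.51, 8.12, 8.27 and 8.46 against 9.39, 10.30, 9.20 and 10.55, a difference of -1.52 (SD 0.71, adjusted p = 0.0389). Fbln2 (1.00, SD 0.02, adjusted p = 0.00299) and Fbln1 (-1.64, SD 0.33, adjusted p = 0.00728) passed in opposite directions against the endomysial clusters as well. Smoc2, a matricellular protein gene, was at 12.28, 12.03, 11.88 and 12.44 against 10.02, 9.88, 10.45 and 10.98, a difference of 1.83 (SD 0.44, adjusted p = 0.00607). Vtn, the vitronectin gene, had 2.36 (SD 0.24, adjusted p = 0.00168), and both passed against the endomysial clusters (1.27 and 1.92). Of 20 metalloproteinase and TIMP genes, 1 passed against all fibroblasts, Adamts5 (0.94, SD 0.34, adjusted p = 0.0291), and 0 passed the edgeR test against the endomysial clusters. These counts are near the shares of all tested genes, 2.89% and 1.25%. Among these genes calls were lost for Omd, Fbln1 and Adamts5 in all 4 fits, for Lum without Acta2GFP, C57BL6 or PdgfrbGFP and for Podn without Acta2GFP, C57BL6 or the pool (adjusted p = 0.068 to 0.132) in the first comparison, and the call was lost for Fbln1 without PdgfrbGFP (adjusted p = 0.0511) in the second.

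**Figure D3:**
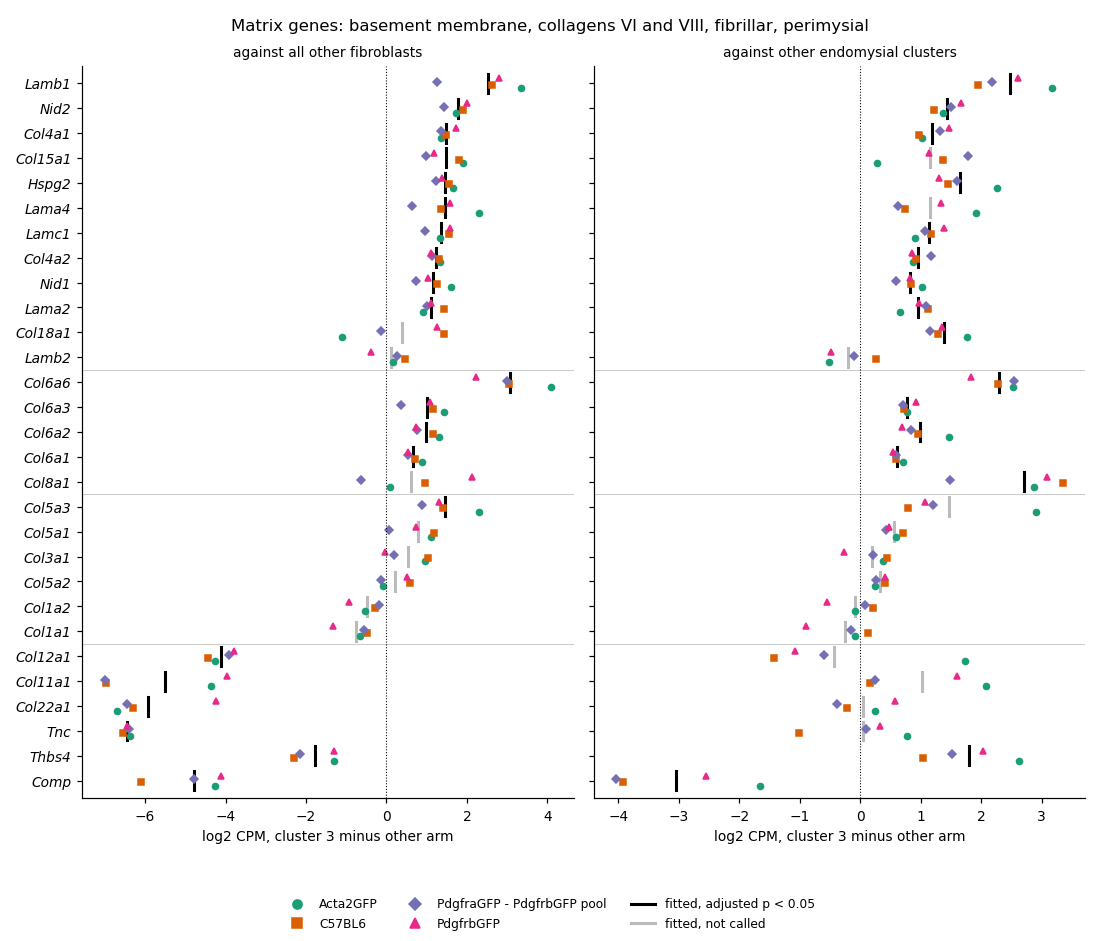
Difference in log2 CPM between cluster 3 and the other arm for matrix genes, with 1 point per strain, against all other fibroblasts and against the other endomysial clusters; the dotted line marks no difference. The plotted basement membrane and collagen VI genes that passed lie to the right of it in all 4 strains in both panels.

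Among secreted signals, 2 chemokines and 1 BMP ligand were higher in cluster 3. Ccl11, which encodes eotaxin, a chemokine for eosinophils, was at 10.16, 10.63, 10.44 and 10.38 against 7.20, 8.58, 8.76 and 8.56, a difference of 2.12 (SD 0.57, adjusted p = 0.00831). Cxcl14 was at 10.61, 10.41, 10.84 and 10.79 against 8.02, 8.69, 8.93 and 9.03, a difference of 1.99 (SD 0.41, adjusted p = 0.00395). They were the only chemokine or cytokine genes that passed, of 19 tested against all fibroblasts and of 20 against the endomysial clusters (1.37, SD 0.13, adjusted p = 0.00299 and 1.41, SD 0.24, adjusted p = 0.0053). Of all tested genes, 0.97% passed as higher and 1.92% as lower against all fibroblasts, then 0.66% and 0.592% against the endomysial clusters. Cluster 10 had a mean Ccl11 of 1436 CPM, compared with 1309 in cluster 3, with overlapping strain values. Bmp4, a ligand of the bone morphogenetic protein family, was at 9.43, 9.19, 8.73 and 8.88 in cluster 3 and 6.05, 6.17, 7.00 and 7.40 in the other fibroblasts, a difference of 2.40 (SD 0.94, adjusted p = 0.0239). Cluster 3 had the highest Bmp4 of the 9 fibroblast clusters, 517 CPM against 193 in cluster 6, without overlap. Against the endomysial clusters Bmp4 had 2.22 (SD 0.92, adjusted p = 0.0491). Leaving out a strain, the call was lost for Bmp4 without Acta2GFP, C57BL6 or the pool (adjusted p = 0.0608 to 0.097) against all fibroblasts, and calls were lost for Bmp4 in all 4 fits and for Cxcl14 without PdgfrbGFP (adjusted p = 0.0562 to 0.156) against the endomysial clusters.

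Several other genes of the BMP and TGF-β list were lower. Of 20 tested, 2 were higher and 5 lower against all fibroblasts, and 1 was higher and 3 lower against the endomysial clusters. The shares of all tested genes were 0.97% higher and 1.92% lower, then 0.66% and 0.592%. Bmp3, whose product opposes other BMPs, was at -1.50, -1.75, -1.61 and -0.90 in cluster 3 and 4.60, 5.46, 4.57 and 5.64 in the other fibroblasts, a difference of -6.57 (SD 0.51, adjusted p = 0.00256). This rested on 48 counts in cluster 3. Gdf10, a related ligand gene, was at 4.00, 5.54, 7.20 and 6.36 against 7.86, 8.73, 9.05 and 9.94, a difference of -3.12 (SD 0.89, adjusted p = 0.0102). Chrdl1, a BMP antagonist gene, was at 4.90, 3.49, 3.10 and 5.23 against 8.34, 8.08, 7.53 and 8.59, a difference of -3.95 (SD 0.65, adjusted p = 0.00231). All 3 also passed against the endomysial clusters, by -6.54, -4.04 and -4.03. In the first comparison Ltbp4, a latent TGF-β binding protein gene, was higher (0.95, adjusted p = 0.0408). Tgfb3 (-1.38, adjusted p = 0.0194) and Ltbp2 (-5.40, adjusted p = 0.0225) were lower. With a strain left out, calls were lost for Ltbp4 in all 4 fits, for Tgfb3 without C57BL6, the pool or PdgfrbGFP, for Ltbp2 without Acta2GFP, C57BL6 or the pool and for Gdf10 without C57BL6 or PdgfrbGFP (adjusted p = 0.0532 to 0.174). For the endomysial clusters, calls were lost for Bmp3 without the pool or PdgfrbGFP and for Gdf10 without C57BL6 or PdgfrbGFP (adjusted p = 0.0663 to 0.114).

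Several secreted Wnt modulators were lower in cluster 3. Of 16 tested, none was higher, 5 were lower and 11 did not pass against all other fibroblasts (median -2.92). The shares of all tested genes were 0.97% higher and 1.92% lower, so none higher of 16 is near the background. None was higher and 4 were lower of 14 against the endomysial clusters (median -2.97), compared with 0.66% and 0.592% of all tested genes. Sfrp4, which encodes a secreted frizzled-related protein that binds Wnt ligands, was at 5.40, 5.87, 6.21 and 6.58 against 7.50, 8.39, 8.30 and 9.21, a difference of -2.34 (SD 0.28, adjusted p = 0.00172). Its call was kept whichever strain was left out. Sfrp2 of the same family was at 1.43, 1.78, 4.38 and 2.80 against 5.87, 7.79, 6.59 and 7.95, a difference of -4.49 (SD 1.63, adjusted p = 0.0245). With equal numbers of cells in both arms it had an adjusted p of 0.221. Dkk3, a dickkopf family gene, differed by -5.76 (SD 1.56, adjusted p = 0.0102). Rspo2, which encodes an R-spondin that amplifies Wnt signals, had 7 counts in cluster 3 against 1920 (-6.67, adjusted p = 0.0312). The remaining gene, Wif1, is a perimysial marker and did not pass against the endomysial clusters (0.32, adjusted p = 0.929). In that comparison the other four passed, Sfrp4 with -3.07 (SD 0.45, adjusted p = 0.00299), Sfrp2 with -5.21 (SD 1.48, adjusted p = 0.0201), Dkk3 with -5.18 (SD 0.81, adjusted p = 0.00526) and Rspo2 with -7.50 (adjusted p = 0.0331). Against all fibroblasts calls were lost for Rspo2 in all 4 fits, for Sfrp2 without Acta2GFP, C57BL6 or PdgfrbGFP and for Dkk3 without PdgfrbGFP (adjusted p = 0.0572 to 0.148). In the endomysial comparison calls were lost for Rspo2 in all 4 fits, for Sfrp2 without Acta2GFP, C57BL6 or PdgfrbGFP and for Dkk3 without PdgfrbGFP (adjusted p = 0.0598 to 0.204).

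Several complement genes were lower in cluster 3. In each comparison 4 of 12 tested genes passed as lower, 8 did not pass and none was higher (medians -0.94 and -1.38). Of all tested genes, 1.92% and 0.592% passed as lower, and 0.97% and 0.66% as higher. At these shares, none higher of 12 is near the background. C7, a component of the membrane attack complex, had 6.18, 6.96, 6.82 and 6.17 against 8.00, 8.37, 7.99 and 9.32, a difference of -1.87 (SD 0.88, adjusted p = 0.0399). The clusterin gene Clu had -2.94 (SD 1.10, adjusted p = 0.0224). Cd59a, which encodes an inhibitor of the attack complex, had -3.88 (SD 1.52, adjusted p = 0.0425), and C2 had -3.73 (SD 1.16, adjusted p = 0.0136). Exons of another annotated gene overlap 46.9% of the C2 exon sequence, so its count is uncertain. Within the endomysium C7 (-2.79), C2 (-4.66), Clu (-3.25) and C4b (-2.47, SD 0.88, adjusted p = 0.033) were lower. The strain values of C4b overlapped. The central component gene C3 did not pass (-0.17, adjusted p = 0.857, then -0.91, adjusted p = 0.228), nor did the C1 inhibitor gene Serping1 (0.46, adjusted p = 0.175, then -0.00, adjusted p = 0.998). Each of the calls given here depended on the set of strains. Against all fibroblasts calls were lost for Cd59a in all 4 fits, for C7 without Acta2GFP, C57BL6 or the pool and for C2 and Clu without Acta2GFP, the pool or PdgfrbGFP (adjusted p = 0.053 to 0.206). Within the endomysium calls were lost for C4b in all 4 fits and for C7, C2 and Clu without Acta2GFP, the pool or PdgfrbGFP (adjusted p = 0.0549 to 0.192).

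**Figure D4:**
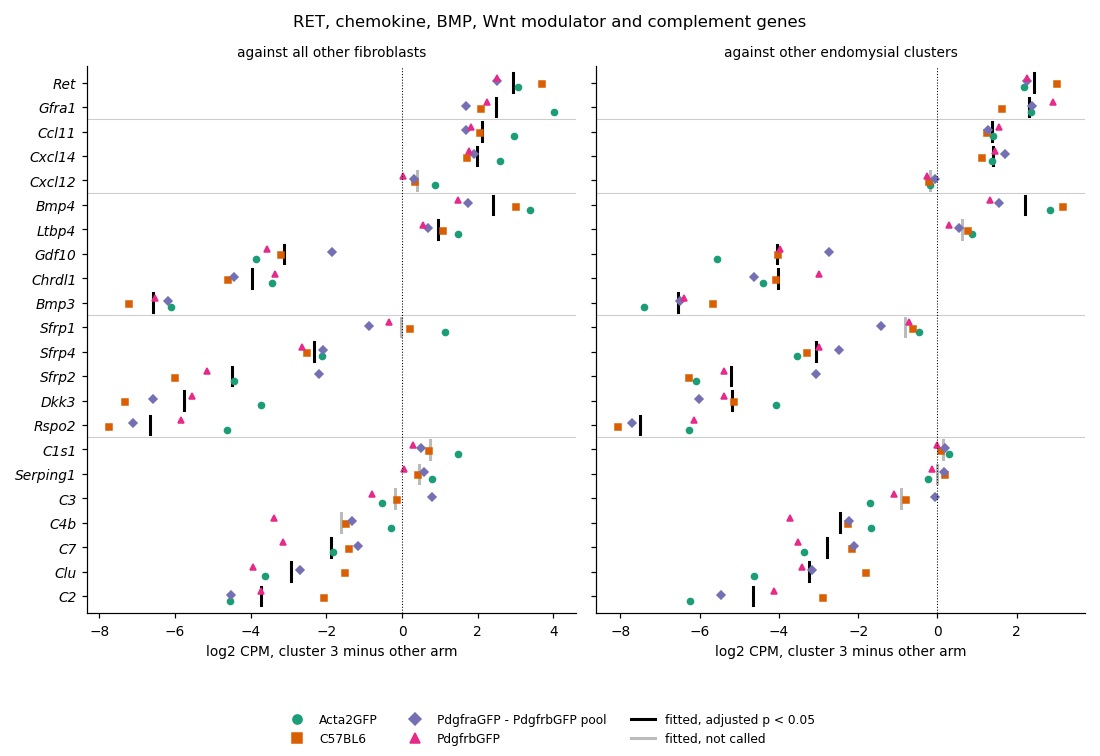
Difference in log2 CPM between cluster 3 and the other arm for secreted factors, with 1 point per strain, against all other fibroblasts and against the other endomysial clusters. Ccl11, Cxcl14 and Bmp4 lie on the higher side in all 4 strains, and Sfrp2, Sfrp4, Gdf10, Chrdl1 and C7 on the lower side.

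By size, the differences against all other fibroblasts were led by genes nearly absent from cluster 3. Among called genes of at least 5 log2 CPM in the higher arm, with 1 direction in every strain, the 12 most negative were Insc, Scx, Mkx, Cpz, Uts2r, Col11a2, Matn3, Chodl, Matn4, Bmp3, Tnc and Cilp2, from -7.21 to -6.44, each lower in all 4 strains. Scx and Mkx encode transcription factors of tendon cells, Tnc encodes tenascin-C, and Matn3 and Matn4 encode matrilins of cartilage. Tnc had the least spread, at 1.10, 2.35, 1.14 and 1.49 in cluster 3 and 7.47, 8.90, 7.55 and 7.94 in the others, a difference of -6.46 (SD 0.07, adjusted p = 6.83e-05). Scx rested on 66 counts in cluster 3, compared with 20697 in the other fibroblasts, a difference of -6.95 (SD 0.40, adjusted p = 0.000365). Folds this large against low counts depend on the prior count of the fit. Of 15 perimysial genes, which the study had named partly from these cells, 14 were lower in cluster 3 (median -5.50). Against the endomysial clusters, which leave the perimysial cells out, their median was 0.04. Thbs4, a thrombospondin gene, was then higher (1.80, SD 0.68, adjusted p = 0.0352) and Comp, the cartilage oligomeric matrix protein gene, lower (-3.05, SD 1.15, adjusted p = 0.0402). Leaving out a strain, calls were lost for Thbs4 without Acta2GFP, the pool or PdgfrbGFP and for Comp without C57BL6, the pool or PdgfrbGFP (adjusted p = 0.0681 to 0.19).

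By the same rule, the 12 most positive differences against all other fibroblasts held the 7 markers, which were chosen with such results known, and 5 further genes. Cldn15, a claudin gene, was at 5.04, 6.63, 6.39 and 6.55 against 0.34, 4.06, 2.84 and 2.87, a difference of 3.59 (SD 0.87, adjusted p = 0.00953). Plau, which encodes urokinase, a plasminogen activator, was at 9.56, 8.96, 9.35 and 9.60 against 5.02, 6.78, 7.18 and 7.30, a difference of 2.75 (SD 1.16, adjusted p = 0.0275). Cluster 3 had the highest mean Plau of the 9 fibroblast clusters, 643 CPM against 255 in cluster 1, without overlap. Alpl, the tissue-nonspecific alkaline phosphatase gene, had 2.60 (SD 0.72, adjusted p = 0.0109), but was higher in cluster 10, at 241 CPM against 114. Scg3, a granin gene of secretory granules, had 2.61 (SD 1.10, adjusted p = 0.0336), and Colgalt2 was described above. Scg3 was higher in cluster 3 in 6 of 7 libraries, and the other four in 7 of 7. Among them, calls were lost for Plau and Scg3 without C57BL6, the pool or PdgfrbGFP, for Cldn15 without the pool or PdgfrbGFP and for Alpl without C57BL6 or the pool (adjusted p = 0.0506 to 0.135).

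Within the endomysium, among called genes of at least 5 log2 CPM in the higher arm, the most negative were Gabra3, Cpz, Cyp2f2, Bmp3, Sema3d, Abcc9, Sfrp2, Dkk3, Cdh13, C2 and Cpe, beside a gene model without a name. Gabra3 (-7.44, adjusted p = 0.0255) encodes a GABA-A receptor subunit and Cyp2f2 (-6.73, adjusted p = 0.013) a cytochrome P450 enzyme. Sema3d (-6.42, adjusted p = 0.0153) encodes a semaphorin guidance cue, Abcc9 (-6.04, adjusted p = 0.00671) a subunit of ATP-sensitive potassium channels and Cdh13 (-4.84, adjusted p = 0.013) a cadherin anchored by lipid. Cpz, which encodes a carboxypeptidase with a Wnt-binding domain, was at -0.16, -3.09, -1.26 and -0.95 in cluster 3 and 6.78, 3.15, 5.79 and 6.16 in the endomysial clusters, a difference of -7.01 (SD 0.40, adjusted p = 0.00299). It kept its call whichever strain was left out. The most positive genes not yet given were Cldn15 (2.88, adjusted p = 0.024) and Prss12, which encodes the serine protease neurotrypsin (2.43, adjusted p = 0.0402). With a strain left out, calls were lost for Sema3d in all 4 fits, for Gabra3, Prss12 and Colgalt2 without C57BL6, the pool or PdgfrbGFP, for Cldn15 without Acta2GFP, the pool or PdgfrbGFP, for Cyp2f2 without the pool or PdgfrbGFP, for Cdh13 without C57BL6 or PdgfrbGFP and for Abcc9 without PdgfrbGFP (adjusted p = 0.0513 to 0.207).

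Genes that mark fibroblast classes in other work differed by list. Of 14 fibro-adipogenic progenitor genes, Tek, the angiopoietin receptor gene, was higher, at 8.52, 7.84, 7.74 and 8.11 against 5.78, 6.34, 6.11 and 6.73, a difference of 1.80 (SD 0.63, adjusted p = 0.0194). Pdgfrl was lower (-0.90, adjusted p = 0.0278). Pdgfra (1.16, adjusted p = 0.135), Ly6a (0.61, adjusted p = 0.148), Cd34 (0.88, adjusted p = 0.0645) and Hic1 (0.92, adjusted p = 0.106) did not pass. Of 14 genes of the Dpp4 and Pi16 class, none was higher in either comparison. As 0.97% and 0.66% of all tested genes were higher, none of 14 is near the background. The shares of all tested genes that were lower were 1.92% and 0.592%. Sema3c (-1.88) and Sfrp4 were lower against all fibroblasts, and Sema3c (-2.23), Sfrp4, Efhd1 (-1.89) and Ugdh (-0.88) against the endomysial clusters. Of 11 genes of the Col15a1 class, 5 were higher against all fibroblasts (median 0.65), the basement membrane genes Col15a1, Col4a1, Col4a2 and Hspg2, and Smoc2. Among 19 genes of fat formation and lipid handling, 3 were higher and 1 lower. G0s2, which encodes an inhibitor of the lipase ATGL, was at 7.69, 8.40, 8.58 and 7.89 against 5.66, 6.34, 6.65 and 6.54, a difference of 1.84 (SD 0.33, adjusted p = 0.00454). Ces1d and Cebpd (0.77, adjusted p = 0.0494) were the others that were higher, and Apod, the apolipoprotein D gene, was lower (-0.75, adjusted p = 0.038). Pparg (-0.68, adjusted p = 0.923) and Cebpa (-0.11, adjusted p = 0.971), which encode regulators of fat cell formation, did not pass. None of 22 immediate early genes, which rise during tissue dissociation, passed the edgeR test in either comparison. Of all tested genes 2.89% and 1.25% passed, so none of 22 is near the background and says little about dissociation. In fits without a strain, calls were lost for Cebpd and Apod in all 4 fits, for Tek without C57BL6, the pool or PdgfrbGFP, for Pdgfrl without Acta2GFP, the pool or PdgfrbGFP and for Sema3c without PdgfrbGFP (adjusted p = 0.0557 to 0.195). Of the endomysial comparison, calls were lost for Ugdh in all 4 fits and for Sema3c and Efhd1 without the pool or PdgfrbGFP (adjusted p = 0.0764 to 0.192).

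Compared with cluster 1, 397 of 16421 genes passed (2.42%), 251 higher (1.53%) and 146 lower (0.889%), with a median of 0.16 over all genes. Of 10 genes of the Col15a1 class, 8 were higher and none lower (median 1.74). Among genes of at least 5 log2 CPM in the higher arm, highest by difference were the matrix genes Adamtsl2 (6.88, adjusted p = 0.000806) and Fbln7 (6.74, adjusted p = 0.000122). They were followed by Lrrn2, a leucine-rich repeat gene (6.61, adjusted p = 0.00192), and Adcyap1r1, the PACAP receptor gene (6.58, adjusted p = 0.000122). Col15a1 was at 7.59, 8.02, 8.55 and 7.94 in cluster 3 and -0.38, 3.20, 3.73 and 1.87 in cluster 1, a difference of 5.32 (SD 1.49, adjusted p = 0.000115), and Cxcl14 differed by 5.55 (SD 1.03, adjusted p = 1.1e-05). Lowest were Bco2, a carotenoid oxygenase gene (-8.28, adjusted p = 0.0077), Nr1h4, the bile acid receptor gene (-8.22, adjusted p = 0.00289), and Bmp3 (-8.10, adjusted p = 0.0027). The oxidase gene Duox1 (-7.44, adjusted p = 0.0155) and the cation channel gene Trpv4 (-6.79, adjusted p = 0.0215) came next. Of 14 genes of the Dpp4 and Pi16 class, 12 were lower than in cluster 1 and none higher (median -2.20), among them Pi16 (-2.22, SD 0.89, adjusted p = 0.00522), Sema3c (-3.49, SD 0.29, adjusted p = 0.000154) and Efhd1 (-3.42, SD 0.56, adjusted p = 0.0025). In fits of 3 strains, calls were lost for Duox1 and Trpv4 without Acta2GFP, the pool or PdgfrbGFP and for Lrrn2 and Bco2 without PdgfrbGFP (adjusted p = 0.0667 to 0.226). The class results were specific to cluster 1. Of 10 Col15a1 class genes, 2 were higher against cluster 8 and 1 against cluster 6, with none lower (medians 0.17 and 0.50). Of the 14 Dpp4 and Pi16 class genes, 1 was higher and 1 lower against cluster 8 (median 0.10). Against cluster 6, 1 was higher and none lower (median 0.63).

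Against cluster 6, where Acta2GFP had too few cells and 3 strains remained, 157 genes passed (0.956%), 91 higher (0.554%) and 66 lower (0.402%). Col6a6 was at 8.20, 7.22 and 7.15 in cluster 3 and 2.30, 1.70 and 2.61 in cluster 6 (C57BL6, pool and PdgfrbGFP), a difference of 5.39 (SD 0.70, adjusted p = 0.0028). Also high by difference were Galnt16, a glycosyltransferase gene (6.95, adjusted p = 0.000877), P2ry14, a nucleotide sugar receptor gene (5.68, adjusted p = 0.0357), Ces1d (4.70, adjusted p = 0.0357) and Vtn (4.39, adjusted p = 0.0292). Lowest were Gabra3 (-7.73, adjusted p = 0.0174), Cyp2f2 (-7.21, adjusted p = 0.00305) and the transcription factor gene Klf5 (-6.59, adjusted p = 0.0159). Arhgdib (-5.90, adjusted p = 0.014) and Mamdc2 (-5.80, adjusted p = 0.0246) followed. In fits with a strain less, calls were lost for Mamdc2 in all 4 fits, for P2ry14, Col6a6, Ces1d, Gabra3 and Arhgdib without C57BL6, the pool or PdgfrbGFP, for Vtn, Cyp2f2 and Klf5 without the pool or PdgfrbGFP and for Galnt16 without the pool (adjusted p = 0.0534 to 0.421). Gfra1 did not pass against cluster 6 (1.16, adjusted p = 0.493). Against cluster 8, 219 genes passed (1.33%), 103 higher (0.627%) and 116 lower (0.706%). Gfra1 had the largest difference on the higher side, at 7.71, 7.93, 8.19 and 8.05 against 1.21, -0.67, 1.26 and 0.06 (7.51, adjusted p = 0.00018). Lowest were Acsbg1, an acyl-CoA synthetase gene (-9.00, adjusted p = 0.00018), Vill, a villin-like gene (-8.98, adjusted p = 0.00979), Art4 (-8.86, adjusted p = 0.000902), Gabra3 (-8.79, adjusted p = 0.00853) and Mlana (-8.29, adjusted p = 0.00118), at 15 to 61 counts in cluster 3. There calls were lost for Vill and Gabra3 without the pool or PdgfrbGFP, for Art4 without PdgfrbGFP and for Mlana without the pool (adjusted p = 0.0583 to 0.176). The comparisons with clusters 1, 6 and 8 share the cells of cluster 3, and whether a difference was larger against one of them than against another was not tested.

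**Figure D5:**
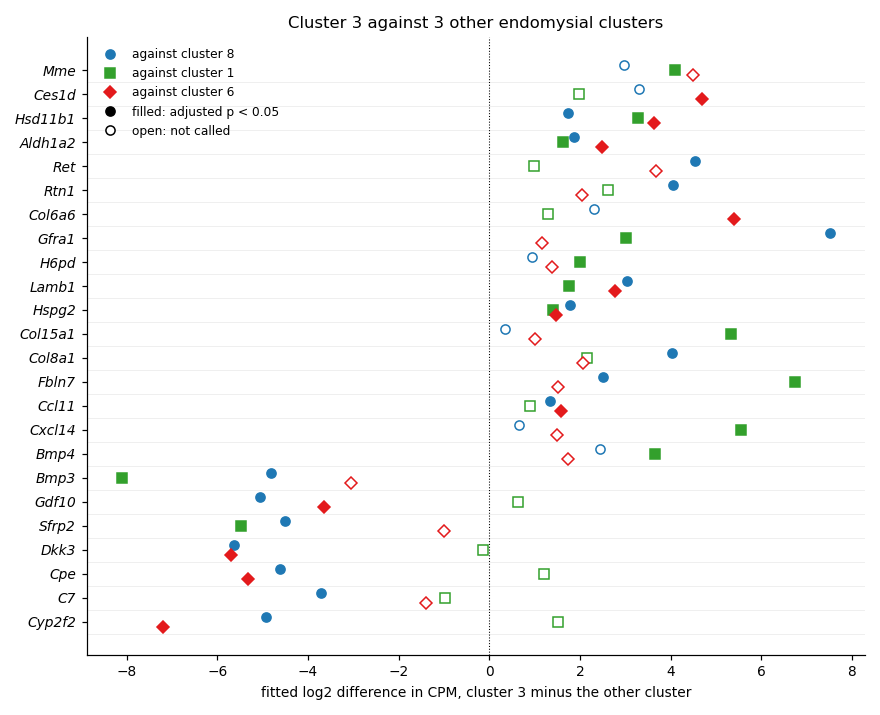
Fitted log2 difference between cluster 3 and clusters 8, 1 and 6 for marker and named genes; the legend gives the symbol of each cluster and of genes that passed an adjusted p of 0.05. Hsd11b1 and Aldh1a2 passed against all 3 clusters, while Gfra1 had 1.16 against cluster 6 and 7.51 against cluster 8.

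Hsd11b1 and Aldh1a2 were the 2 markers that passed against each of clusters 1, 6 and 8. Hsd11b1 differed by 3.29 (SD 0.58, adjusted p = 5.74e-05) from cluster 1, a difference of 3.63 (SD 0.25, adjusted p = 0.000188) from cluster 6 and 1.74 (SD 0.44, adjusted p = 0.00364) from cluster 8. Aldh1a2 differed by 1.62 (SD 0.52, adjusted p = 0.00507), a difference of 2.50 (SD 0.49, adjusted p = 0.00233) and 1.87 (SD 0.52, adjusted p = 0.00338) in the same order. Mme passed against cluster 1 (4.09, SD 2.05, adjusted p = 0.0293), but not against clusters 6 (4.50, adjusted p = 0.0812) and 8 (2.98, adjusted p = 0.152). Ret (4.53, adjusted p = 0.032) and Rtn1 (4.06, adjusted p = 0.0183) passed against cluster 8. Ret did not pass against cluster 1 (0.99, adjusted p = 0.692) or cluster 6 (3.67, adjusted p = 0.153). In the contrasts with cluster 1 calls were lost for Mme in all 4 fits and for Aldh1a2 without the pool (adjusted p = 0.0577 to 0.21), with cluster 6 the call was lost for Aldh1a2 without the pool or PdgfrbGFP (adjusted p = 0.0507 to 0.073), and with cluster 8 calls were lost for Ret without Acta2GFP, the pool or PdgfrbGFP, for Rtn1 without C57BL6, the pool or PdgfrbGFP, for Hsd11b1 without the pool or PdgfrbGFP and for Aldh1a2 without the pool (adjusted p = 0.0628 to 0.273). Without the strain block Aldh1a2 had an adjusted p of 0.0561 against cluster 1 and of 0.0606 against cluster 8.

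Some calls named above also depended on other settings. Against all other fibroblasts, equal numbers of cells in both arms ended the calls of Alpl, Apod, C7, Cd59a, Cebpd, Ces1d, Clu, Col5a3, Col6a1, Col6a3, Dhrs3, Ece1, Fbln1, Lama3, Lama4, Ltbp2, Ltbp4, Nrtn and Omd (adjusted p = 0.0547 to 0.189). Without the strain block those of Ace, Adamts5, Apod, Cd59a, Cebpd, Clu, Col5a3, Ltbp2, Omd, Pdgfrl and Podn (adjusted p = 0.06 to 0.382) were lost. With each cell scaled to the same total before summing, Cebpd and Lama3 (adjusted p = 0.0559 to 0.0699) missed the threshold, and with RLE size factors Cebpd and Nrtn (adjusted p = 0.0502 to 0.0558). In the endomysial comparison the calls without a strain block were lost for C4b, Cldn15, Clu, Prss12 and Thbs4 (adjusted p = 0.0657 to 0.129), those with cells scaled alike for Cldn15, Col18a1 and Comp (adjusted p = 0.0517 to 0.0787), and that with plates as units for Thbs4 (adjusted p = 0.13). In the contrast with cluster 1, a minimum of 10 cells per arm ended the calls of Mme and Trpv4 (adjusted p = 0.0664 to 0.117). In that with cluster 6, leaving out the strain block ended those of Arhgdib, Gabra3, Mamdc2 and P2ry14 (adjusted p = 0.0856 to 0.282), and scaling cells alike that of Mamdc2 (adjusted p = 0.0512). In that with cluster 8 the calls of Art4 and Gabra3 (adjusted p = 0.0757 to 0.0967) were lost without the strain block.

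Between the muscles of the pool, cluster 3 held 243 CPM of Ret in gastrocnemius and 271 in soleus, 1093 and 1090 of Hsd11b1, and 232 and 258 of Mme. On the PdgfrbGFP plate the same genes were at 118 and 180, 835 and 756, and 296 and 221 CPM.

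The defining genes of other cell types summed to under 100 CPM in cluster 3, apart from mural and muscle fibre genes. The study excluded cells positive for the endothelial protein CD31 at the sort. It also removed cells with clear endothelial or immune signatures, so low sums for those lists were largely set beforehand. The 10 mural genes summed to 447 to 991 CPM in cluster 3 and 519 to 1272 in the other fibroblasts. Most of the cluster 3 sum was Pdgfrb (445 CPM over all its cells), a gene used in the sort and the cell filter. Cspg4 (102), Des (73.2) and Acta2 (52.4) followed. Myh11 (5.88), Rgs5 (3.02), Mcam (0.909) and Kcnj8 (0.497) were low. The summed level of 10 endothelial genes was 10.2 to 21.7 CPM over the 4 strains, compared with 22.9 to 55.0 in the other fibroblasts. That of 6 Schwann cell and glia genes was 0.714 to 10.8 compared with 19.7 to 45.6. Sox10 and Foxd3 of that list were at 0 in cluster 3, as were all 5 adipocyte genes, including Adipoq and Plin1, and Pax7, which defines muscle stem cells. The 10 immune genes summed to 6.36 to 43.3 CPM (6.87 to 43.0 in the other fibroblasts). The 11 muscle fibre genes, most of them Acta1 and Ckm, summed to 158 to 189 CPM, against 145 to 241. No gene of the endothelial, mural, immune, muscle fibre or glia lists passed against all fibroblasts, where 2.89% of all tested genes passed. The fibroblast genes Pdgfra, Col1a1, Col1a2, Dcn, Lum, Cd34, Fbln1, Mmp2, Serpinf1 and Igfbp6 summed to 25890 to 27294 CPM in cluster 3 and 26209 to 34123 in the others, and Lum was higher and Fbln1 lower, as given above. Of the mural list, Cspg4 was higher against the endomysial clusters (1.52, SD 0.36, adjusted p = 0.0386), with overlapping strain values. In that comparison the call was lost for Cspg4 without C57BL6, the pool or PdgfrbGFP (adjusted p = 0.167 to 0.272), and the adjusted p was 0.152 without the strain block and 0.223 with plates as units. The position of the cells in the muscle was not measured.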

How the data were processed

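The authors deposited raw read counts per gene and cell, made from Smart-seq2 reads by alignment to GRCm38 and gene counting with featureCounts, with no molecular identifiers and the strand setting not given in the sources used here, together with a cluster label per cell. Low-depth cells, cells with very many genes (possible doublets) and cells without Pdgfra or Pdgfrb had been removed by the authors, and doublets were not called again. Cells positive for CD31 had been excluded at the sort, and cells with clear endothelial or immune signatures had been removed too. The table also had 1 column that no label matched, which was left out. Counts of each strain were summed per arm (at least 3 cells) and tested with edgeR 4.0.16 in R 4.3.3 by the quasi-likelihood test, with TMM scaling, filterByExpr, strain as a block, since both arms of a strain come from the same animals and plates, and Benjamini-Hochberg adjustment at 0.05. Cluster pairs were contrasts of 1 fit over clusters 1, 3, 6 and 8. DESeq2 1.42.0, other scaling, other units and left-out strains were alternatives. In simulated data on 16330 genes, 0.0434% of unchanged genes were called in the first comparison. Of genes changed by 2 on the log2 scale 41.4% were recovered, and of those changed by 1 15.2%. A gene that did not pass may thus still differ by such an amount. The simulation gave all strains the same mean profile, unlike the data. Named genes were the markers, members of the lists described, and the called genes of largest difference in each direction (12 per pooled comparison, 5 per pair) with 1 direction in every strain and at least 5 log2 CPM in the higher arm, with unnamed gene models left out of the text. Cluster 3, its markers and the gene lists were chosen with earlier results of these data known. A few listed genes are not reported here and enter no list count. Intervals are exact (Clopper-Pearson), and read counts are not independent molecules.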

Additional observations from a re-analysis of the deposited data

Results flagged for a closer look

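Single strains stood apart from the other three in 8 of 90 sets of 4 values checked (8.89%), where chance gives about 1 in 20. The distance of the outlying strain from its nearest neighbour exceeded Dixon's 95% limit in each. In cluster 3, Acta2GFP had the lowest level of Cldn15, 5.04 log2 CPM with the next strain at 6.40, and of Mme, 7.41 with the next at 7.92. The Plau difference against all other fibroblasts was 4.54 in Acta2GFP, with the next at 2.30, and the Insc difference was -8.35 in the pool, with the next at -7.02. Against the other endomysial clusters, C57BL6 had the smallest difference of Cldn15, 1.76 (next 3.14), and the largest of Ret, 3.03 (next 2.26). The pool had the least negative difference of the gene model Gm26771, -2.90 (next -5.73), and the highest cluster 3 level of Sema3d, -0.50 log2 CPM (next -1.51). The pool and Acta2GFP each rest on their own plates, and their sort gates are not given. The part of plate or gate in the values was not tested.

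The 2 Cspg4dsRED cells of cluster 3, which entered no comparison, carried at least 1 of the 7 markers each, whereas the median over the other fibroblasts of that strain was 0.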

How the results depend on the processing

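Against all other fibroblasts the 483 calls became 474 with RLE size factors, 513 without the filter on low counts, 584 with cells weighted alike, 483 with 10 or more cells per arm, 281 with equal numbers of cells, 854 with plates as units and 1675 with DESeq2. Against the other endomysial clusters the 201 calls became 537 with plates as units and 1101 with DESeq2, where 39.1% rather than 52.7% were higher. For clusters 8, 1 and 6 (219, 397 and 157 calls) the counts were 475, 877 and 381 with plates as units and 837, 1316 and 764 with DESeq2. Without the replicate block, that is with strain left out of the model, the calls were 465 and 186 in the first 2 comparisons and 132, 261 and 88 against clusters 8, 1 and 6. With 1 strain left out, the fits, which held fewer strains, made 125 to 213, 21 to 117, 32 to 176, 88 to 353 and 8 to 189 calls in the order given. The lowest counts came in those without PdgfrbGFP or, for cluster 6, without the pool. Of the listed or named genes, 118 were called against all fibroblasts and 61 of them kept the call in every fit without a strain. Against the endomysial clusters 19 of 74 did. No fitted difference of a called gene changed sign. The mean share of cells in cluster 3 over 4 strains was 31.3% of fibroblasts and 45.6% of endomysial cells. At 20 rather than 100 counts per 500000, the median over the 7 markers of the share of cells with a marker was 43.7% rather than 30.6%, and the mean number of markers per cell 3.68 rather than 2.95. Differences in RNA content or gene number cannot reach a p under 0.13 with 4 strains, and genes with few counts in cluster 3 have folds that depend on the prior count. Why the counts of calls differ between settings was not tested.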
